A study of Drosophila melanogaster with 23 samples.

Results

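Ribosome-loaded (polysome) RNA was compared with total RNA from Drosophila melanogaster ovaries of both genotypes of a polysome profiling experiment. The comparison used 8 of the 23 libraries of the series, chosen by their labels alone: 4 polysome libraries, 2 per genotype, against 4 total libraries, 2 per genotype. Ovaries were dissected 1 to 5 days after eclosion. The control genotype, called hsbam, carried bam RNAi and an hsbam transgene with the nosGAL4 driver, and the other carried S19b RNAi, UAS-Dcr2 and nosGAL4. The nosGAL4 driver, which is active in germ cells, was thus common to all 8 libraries, and the genotypes differed in bam RNAi, hsbam and UAS-Dcr2 as well as in S19b RNAi. Since the ovary's somatic cells are outside the reach of that driver, each library mixes germ cells in which RNAi was driven with somatic tissue. Whether the hsbam transgene acted in somatic cells was not tested. Per the labels, both total and polysome samples were put on polysome gradients before RNA was isolated, and RNA was selected for poly(A) tails. Which gradient fractions were pooled is not given in the sources used here.

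An mRNA that is being translated carries several ribosomes at once, and such polysomes sediment below free mRNA, single ribosomal subunits and monosomes in a sucrose gradient. The share of a gene's mRNA in polysomes is therefore used as a measure of how actively it is translated. Ovaries rely heavily on this layer of control: many mRNAs of the oocyte are made early and kept silent by repressor proteins until later, whereas the follicle cells around it make eggshell proteins in a short burst. Because levels are relative within a library, a higher level in polysome than in total RNA says that a gene took a larger share of the polysome library than of its total partner, not that a given fraction of its mRNA was on ribosomes. In these bulk samples fewer cells of a type and less RNA per cell cannot be told apart.

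The libraries held 2780781 counts (hsbam polysome replicate 2) to 15463633 counts (hsbam total replicate 1) over 17023 genes. RpS19b, the target of S19b RNAi and a germline paralog of ribosomal protein S19 (chromosome 3R, 23932729 to 23933530, dm6), checks the labels. In total RNA it had 39.4 and 227.5 CPM (counts scaled to a common library total) in hsbam, against 16.8 and 1.44 CPM in S19b RNAi. Both knockdown libraries lay below both controls. The genotypes also differed in bam RNAi and the hsbam transgene, and their part in this difference was not tested. The germline markers of an ovary were present: 6 of 7 had a row in the tables, with a summed level of 788.3 to 2075 CPM in total RNA and 931 to 1862 CPM in polysome RNA. No germline marker was at 0 in all 8 libraries.

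Libraries stood apart in a way the labels do not give. Each replicate number makes a pair of a total and a polysome library, so there are 4 pairs. In hsbam pair 1 and S19b RNAi pair 2, 10689 to 11875 genes had a count, whereas hsbam pair 2 and S19b RNAi pair 1 had 7394 to 8937. The latter 4 libraries also had more RNA of muscle markers, with 14070 to 19470 CPM summed over 4 genes against 3992 to 6707 CPM in the former. Markers of the somatic ovary, 7 genes, summed to 1241 to 1431 CPM there against 244.1 to 477.2 CPM. Nervous tissue markers summed to 78.16 to 160.4 CPM there against 7.747 to 28.39 CPM, nearly all of it elav, while Rdl was at 0 in 7 of the 8 libraries. With genotype and fraction as terms, edgeR's quasi-likelihood test (p adjusted by Benjamini and Hochberg) called 353 genes higher and 91 lower in these 4 libraries out of 9688, among them 16 of 23 muscle sheath genes higher and 8 of 24 eggshell and yolk genes lower. That fit had no term for the pair, so the total and polysome library of a pair counted as separate replicates. The sets were also formed from the genes detected in these same libraries. These calls therefore describe the split and are no independent test of it. The split runs across both genotypes and both fractions, so polysome and total RNA are balanced within it.

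**Figure D1:**
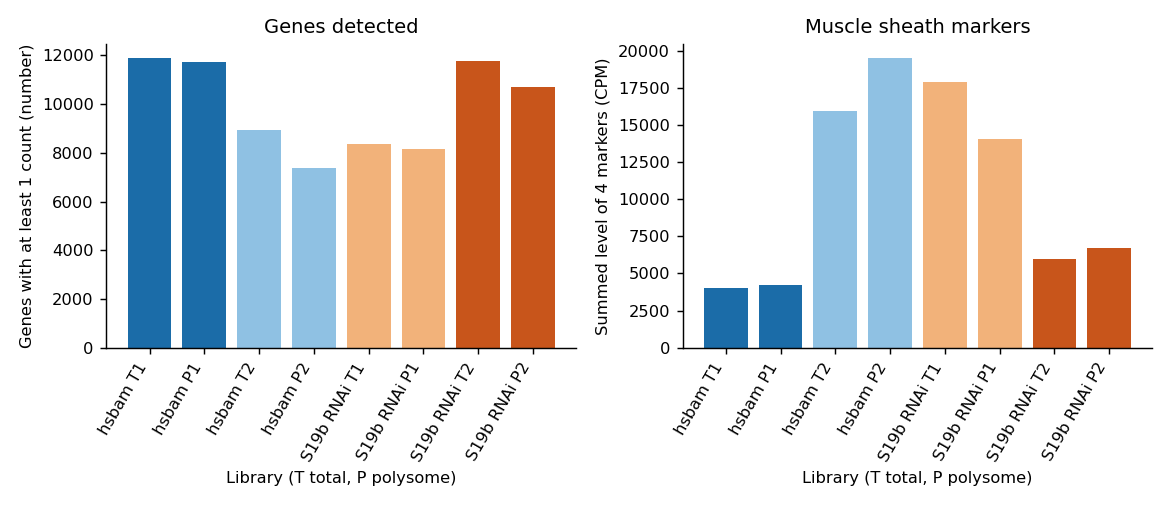
Genes with at least 1 count (left) and summed level of 4 muscle sheath markers in CPM (right) in each of the 8 libraries, coloured by pair; T is total and P polysome RNA. The 4 libraries of hsbam pair 2 and S19b RNAi pair 1 have fewer genes, 7394 to 8937, and more muscle marker RNA, 14070 to 19470 CPM.

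Across both genotypes, no mRNA passed the test for a difference between polysome and total RNA. With genotype as a term, edgeR's quasi-likelihood test (p adjusted by Benjamini and Hochberg) called 0 of 9688 genes (0%), and 113 genes had an unadjusted p below 0.05. DESeq2 and limma-voom called 0 as well. With the 4 pairs as blocks the count was again 0, with 379 genes at an unadjusted p below 0.05. The 8-library differences and SEs given below come from the fit without blocks. Those SEs therefore include differences in level between the pairs of a genotype. Data of this size were simulated without pairs, with the changed genes taken from those above the median level. The fit without blocks recovered 85% of 100 genes changed 8-fold and 0% of 100 changed 2-fold. Under those settings it thus did not detect differences of 2-fold. The fit with blocks was not simulated, so its power is not known.

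Within each genotype the result was the same, with 0 of 9688 genes called (0%) in hsbam and 0 (0%) in S19b RNAi by edgeR's quasi-likelihood test, and 42 and 5 genes at an unadjusted p below 0.05. DESeq2 and limma-voom called 0 in each. The difference of the polysome to total ratio between genotypes gave 0 calls too (0%), with 5 genes at an unadjusted p below 0.05, and 0 by DESeq2 and limma-voom. With the pairs as blocks, 8 genes were called lower in hsbam polysome RNA and 1, the chorion gene Cp7Fc, higher in S19b RNAi polysome RNA. The 8 genes included eIF3k, a subunit of the initiation factor that binds the small ribosomal subunit, Atg17, an autophagy gene, ci, the transcription factor of hedgehog signalling, and the RNA lncRNA:CR40469, all picked here after their values were seen. Counts of eIF3k were 3378 in total and 2302 in polysome RNA of pair 1, and 1610 and 18 in pair 2. Cp7Fc had 14 counts in total and 1023 in polysome RNA of S19b RNAi pair 1, and 3736 and 5366 in pair 2. Both calls thus include 1 library with very few counts of the gene. Leaving out hsbam polysome replicate 1, which leaves hsbam polysome replicate 2 as the only polysome library of that genotype and assumes that it varies like the other groups, gave 460 calls in hsbam, of which 438 were lower.

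The spread between pairs was wide. Levels in total and polysome RNA correlated across the 9688 genes with Pearson's r of 0.981 in hsbam pair 1 and 0.964 in S19b RNAi pair 2, but with 0.792 in hsbam pair 2 and 0.858 in S19b RNAi pair 1. The SD of the log2 ratio was 0.57 and 0.72 in the first 2 and 2.56 and 1.89 in the others. Of the genes with at least 100 counts in total RNA, 318 of 6505 had 0 counts in polysome RNA of hsbam pair 2 and 98 of 6574 in S19b RNAi pair 1, against 0 of 7010 in hsbam pair 1 and 0 of 7378 in S19b RNAi pair 2. The hsbam polysome library of pair 2 is also the shallowest.

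Polysome to total ratios of hsbam pair 1 and S19b RNAi pair 2 resembled each other although they come from different genotypes. Across the 4517 genes whose mean log2 CPM reached 5, the 2 sets of ratios correlated with r = 0.79 (Spearman's rho 0.80), and over all 9688 genes with r = 0.56. The other 5 combinations of pairs gave r from 0.01 to 0.11 at that level. Genes are not independent replicates, and the points of the first combination share no library but do share the higher number of genes detected. Within 6 bins of coding length, r over all genes ran from 0.43 to 0.62.

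**Figure D2:**
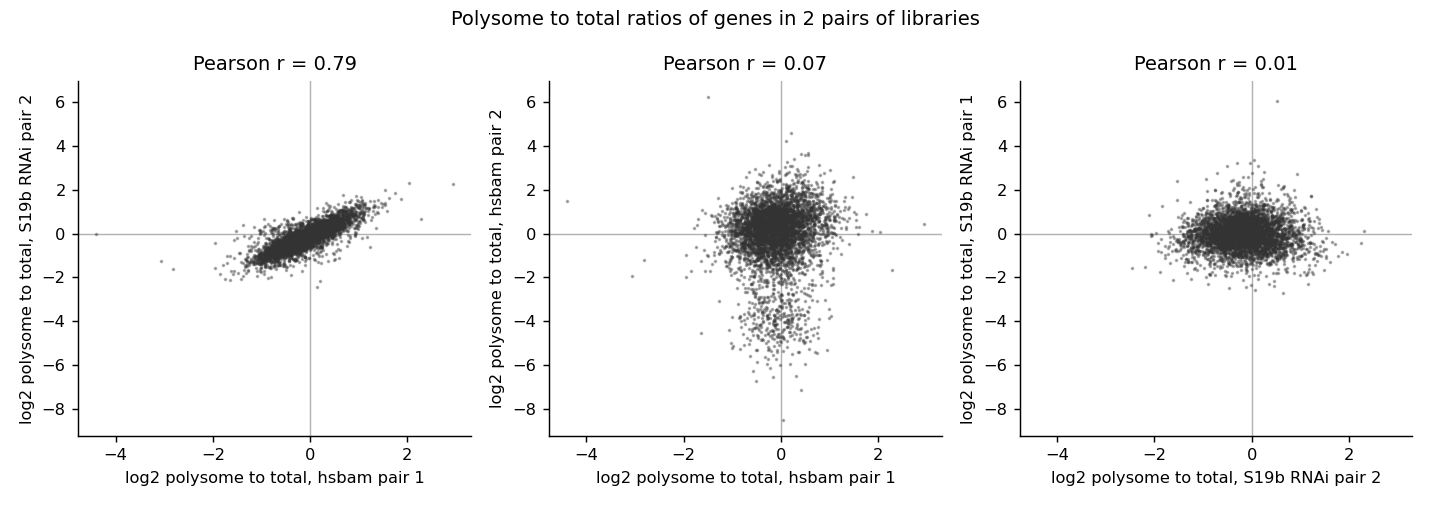
The log2 polysome to total ratio of 4517 genes whose mean log2 CPM reached 5, each point a gene, in hsbam pair 1 against S19b RNAi pair 2 (left), hsbam pair 1 against hsbam pair 2 (middle) and S19b RNAi pair 2 against S19b RNAi pair 1 (right). The points follow a line in the left panel, r = 0.79, and form round or downward-spread clouds in the others.

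The fit was also run on the 4 libraries of hsbam pair 1 and S19b RNAi pair 2, a choice made after seeing the data and by the number of genes detected. The ratios of these 2 pairs were known to correlate when they were chosen, so the calls and adjusted p-values of this fit were in large part fixed by the choice. They describe these 4 libraries and are no independent test of a difference between fractions. These 4 libraries called 1394 of 10100 genes higher (13.8%) and 1465 lower (14.5%) in polysome RNA, with 1 residual degree of freedom per gene and the spread drawn mostly from all genes. A fold change of at least 2 was reached by 355 of the higher and 232 of the lower genes. With the library's total count in place of TMM scaling 1629 were higher and 873 lower, so that the higher ones made up 65.1% of calls against 48.8%, and the median of all genes moved from 0.03 to 0.13 on the log2 scale. DESeq2 called 806 higher and 1033 lower. The 4 libraries of the other pairs, fitted alone, called 6 of 9387 genes (0.0639%): the eggshell genes Cp15 and Vm34Ca were higher, and Ziz, ci, CG43897 and Msp300 lower.

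In the other 2 pairs, genes called from the first 4 libraries had their direction about as often as any gene. Of 1394 genes called higher, 21.5% were higher in polysome RNA in both of the other pairs, against 19.7% of all 9688 genes. Of 1465 called lower, 28.6% were lower in both, against 25.4%. Among genes whose mean log2 CPM reached 5 these shares were 32.7% against 29.5% and 27.3% against 23.6%. At that level 15.1% of genes called higher were lower in both other pairs, against 23.6% of all. Of genes called lower, 25.5% were higher in both, against 29.5%. All calls and adjusted p-values given below from the 4 libraries (called the 4-library fit) carry both limits. Where list members are named below from these calls by smallest p, only genes with 1 direction in all 4 pairs were eligible. For them that shared direction was fixed by the choice and adds no support. As a description over all 4 pairs, after TMM scaling 697 genes (7.19%) were higher and 1000 genes (10.3%) lower in polysome than in total RNA in every pair. All 4 polysome libraries lay above all 4 total libraries for 125 genes (1.29%), and below them for 56 genes (0.578%).

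Genes of the respiratory chain and ATP synthase, which make the energy currency in mitochondria, had the second highest median ratio of the 27 lists tested. Of 70 nuclear-encoded members tested, 16 (22.9%) were higher in polysome RNA in all 4 pairs, against 7.19% of all genes, and 0 were lower. The 8-library median was 0.56 on the log2 scale, against -0.03 for all genes. The list median was 0.32 to 0.79 when 1 library was left out. The 4-library fit called 55 of 70 higher (78.6%, against 13.8% of all genes) and 1 lower (1.43% against 14.5%). Pair medians were 0.78, 0.46 and 0.96 in hsbam pair 1, hsbam pair 2 and S19b RNAi pair 2, but -0.17 in S19b RNAi pair 1. The members are short, with a median coding length of 466.5 bases against 1377 for all genes.

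ND-30, a subunit of respiratory complex I (chromosome 3L, 3158485 to 3159578), had 42.8 and 50.2 CPM in hsbam total RNA and 59.4 and 78.0 CPM in S19b RNAi total RNA. In polysome RNA it had 98.9 and 113.3 CPM in hsbam and 125.3 and 179.1 CPM in S19b RNAi. Every polysome library lay above every total library. Over 8 libraries the log2 difference was 1.17 (SE 0.35), with an adjusted p of 1 by edgeR's quasi-likelihood test, and in the 4-library fit it was 1.11 (SE 0.14; adjusted p = 0.000243).

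ND-B14.5B, another complex I subunit, had 32.4, 75.3, 43.3 and 50.7 CPM in total RNA of hsbam pairs 1 and 2 and S19b RNAi pairs 1 and 2, the order kept below wherever 4 levels are listed. Its polysome partners had 81.9, 174.4, 68.2 and 134.7 CPM, higher in each pair, though the groups overlapped. ATPsynO, a stalk subunit of ATP synthase, had 127.8, 48.9, 103.7 and 236.8 CPM in total and 358.7, 114.7, 172.5 and 553.2 CPM in polysome RNA. Both were higher in polysome RNA in all 4 pairs, by 1.20 (SE 0.49) and 1.19 (SE 0.48) on the log2 scale over 8 libraries. SdhC, the membrane anchor of complex II, was called in the 4-library fit at 1.31 (SE 0.15), but in hsbam pair 2 it had 105.3 CPM in total and 100.3 CPM in polysome RNA, higher only after TMM scaling. The 2 members with the highest levels had ratios near 0: ATPsynC differed by 0.22 (SE 0.40) and ATPsynbeta by 0.14 (SE 0.34).

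Mitochondrial ribosomal proteins, which build the ribosome that translates the organelle's own mRNAs, had a median of 0.30, which was 0.03 without hsbam polysome replicate 1 and was 0.49 without hsbam polysome replicate 2. Of 70 members tested, 17 were higher in all 4 pairs (24.3% against 7.19% of all genes) and 1 lower. The 4-library fit called 34 higher (48.6% against 13.8% of all genes) and 0 lower, and DESeq2 on these libraries 19 and 0. The pair medians were 0.40 in hsbam pair 1 and in S19b RNAi pair 2, 0.13 in S19b RNAi pair 1 and -0.36 in hsbam pair 2. mRpL50, a large subunit protein, had 27.2, 22.5, 18.9 and 39.6 CPM in total and 51.5, 29.5, 40.4 and 64.5 CPM in polysome RNA, in the order hsbam pairs 1 and 2 and S19b RNAi pairs 1 and 2. It was higher in each pair, and its 8-library difference was 0.73 (SE 0.50). mRpL2, mRpL38 and mRpL49 were also called higher in the 4-library fit, by 0.68 to 0.87. The genes encoded in the mitochondrial genome could not be compared, since all 37 had 0 counts in every library.

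Cytoplasmic ribosomal proteins had a median of -0.30 over 74 canonical members, which was -0.54 without S19b RNAi polysome replicate 2 and -0.14 without S19b RNAi polysome replicate 1. None was higher in all 4 pairs and 10 (13.5%) were lower, near the 10.3% of all genes. The 4-library fit called 0 higher and 2 lower (2.7%), fewer than the 13.8% and 14.5% of all genes. Their summed share of counts was 14.2% ± 1.74 (SD, n = 4) in total RNA and 11.5% ± 3.16 (SD, n = 4) in polysome RNA. By library, the total share was 14.2% and 16.6% in hsbam and 12.6% and 13.3% in S19b RNAi, and the polysome share 11.3%, 10.6%, 8.4% and 15.9% in the same order. S19b RNAi pair 2 thus went the other way from the remaining 3 pairs. A 2-sided exact permutation test within genotype gave p = 0.222 (adjusted p = 0.266 over 6 RNA classes), where 36 arrangements allow a smallest p of 0.0556.

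RpS20, of the small subunit, had 1208, 841.1, 859.3 and 1216 CPM in total RNA of hsbam pairs 1 and 2 and S19b RNAi pairs 1 and 2, and 466.8, 214.3, 465.2 and 1027 CPM in polysome RNA. It was lower in each pair, by -1.09 (SE 0.40) over 8 libraries and by -0.91 (SE 0.26; adjusted p = 0.0206, edgeR's quasi-likelihood test) in the 4-library fit. A pair of snoRNA genes lies within it and CG17272 on the other strand, so its count is uncertain. RpL35, of the large subunit, had 1869, 3253, 2157 and 1564 CPM in total and 1023, 1792, 1308 and 1226 CPM in polysome RNA, again lower in each pair. The members with the highest levels, RpL41 and sta, the latter encoding RpSA, differed by -0.87 (SE 0.53) and -0.24 (SE 0.39).

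The paralog targeted by the knockdown, RpS19b, was higher in polysome RNA in hsbam pair 1, at 85.1 against 39.4 CPM, in hsbam pair 2, at 255.7 against 227.5 CPM, and in S19b RNAi pair 2, at 3.51 against 1.44 CPM. In S19b RNAi pair 1 it had 16.1 CPM in polysome and 16.8 CPM in total RNA. The 8-library difference was 0.24 (SE 0.85), and the 4-library fit called it higher at 1.02 (SE 0.19; adjusted p = 0.00173, edgeR's quasi-likelihood test). RpS19a, the canonical copy used in all tissues, differed by -0.09 (SE 0.37) over 8 libraries and by 0.03 (SE 0.23) in the 4-library fit. The 10 ribosomal protein paralogs tested had a median of 0.07, or -0.42 without S19b RNAi polysome replicate 2, with 1 higher and 1 lower in all 4 pairs.

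Of 38 translation initiation factors tested, 0 were higher and 5 lower in all 4 pairs, and the share lower, 13.2%, was near the 10.3% of all genes. Their 8-library median was 0.03, and it ran from -0.07 to 0.12 when 1 library was left out. All 4 pair medians were below 0, from -0.14 to -0.02. Calls of the 4-library fit were 4 higher and 6 lower (10.3% and 15.4% of 39). Of 10 elongation and termination factors, 0 were higher and 5 lower in all 4 pairs (50% against 10.3% of all genes). Their 8-library median was -0.19, and all 4 pair medians were below 0, from -0.70 to -0.09. In hsbam pair 2 the median of all genes was -0.093. Initiation factors had -0.030 and elongation and termination factors -0.091 there, so neither list was lower than all genes in that pair. The 4-library fit called 3 lower (30% against 14.5% of all genes). eIF4G1, the scaffold that joins the mRNA cap to the ribosome, had 824.4 and 279.7 CPM in total and polysome RNA of hsbam pair 1, 596.5 and 327.6 CPM in hsbam pair 2, 863.7 and 897.2 CPM in S19b RNAi pair 1, and 608.6 and 148.4 CPM in S19b RNAi pair 2. The ratio was lowest in S19b RNAi pair 2 and near even in S19b RNAi pair 1. The 4-library fit gave -1.89 (SE 0.18; adjusted p = 7.04e-05, edgeR's quasi-likelihood test) and the 8-library fit -0.86 (SE 0.51). eIF5B, which joins the ribosomal subunits, and eRF1, which reads stop codons, were called lower in the 4-library fit, but not by edgeR with the library's total count as the scaling (adjusted p = 0.0889 and 0.105). The poly(A)-binding protein pAbp was called lower there too, by -0.88 (adjusted p = 0.012, edgeR's quasi-likelihood test), and differed by -0.17 (SE 0.62) over 8 libraries. The elongation factor eEF2 differed by -0.15 (SE 0.40) and the RNA helicase eIF4A of the cap-binding complex by -0.07 (SE 0.45) over 8 libraries.

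Eggshell and yolk genes had a list median of 0.59 over 8 libraries, the highest of the 27 lists there. It depended on single libraries: without S19b RNAi polysome replicate 2 it was 0.06, ninth of the lists, and without S19b RNAi total replicate 2 it was 1.51. Of 24 members tested, 11 were higher in polysome RNA in all 4 pairs (45.8% against 7.19% of all genes) and 0 lower. Pair medians were 0.32, 1.31, 1.78 and 0.46 in hsbam pairs 1 and 2 and S19b RNAi pairs 1 and 2. The 4-library fit called 9 higher and 1 lower (37.5% and 4.17%, against 13.8% and 14.5% of all genes). Their levels varied widely between libraries, from 522.6 to 14680 CPM for 4 late eggshell markers summed, and the 4 libraries with fewest genes had 8 of 24 members lower as given above.

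Vm32E, a vitelline membrane protein gene of follicle cells (chromosome 2L, 11171167 to 11171665, inside Ca-beta), had 3.23, 3.49, 20.6 and 234.9 CPM in total and 9.38, 14.7, 77.1 and 883 CPM in polysome RNA. It was higher in each pair, although the pairs differed far more from each other than the fractions did. The 8-library difference was 1.90 (SE 0.80) and the 4-library one 1.70 (SE 0.19; adjusted p = 0.000136, edgeR's quasi-likelihood test). Cp15, a chorion protein gene, had 574.7, 17.1, 127.8 and 1610 CPM in total and 1841, 85.2, 471.4 and 3820 CPM in polysome RNA. Vm34Ca had 202.6, 401.8, 316.8 and 3375 CPM in total and 405.9, 924.2, 1393 and 6297 CPM in polysome RNA. Both were called higher in the 4 libraries with the most and in the 4 with the fewest genes detected. With the pairs as blocks over 8 libraries, Cp15 differed by 1.74 and Vm34Ca by 1.28. Unadjusted p was 0.00034 and 0.0024 there, and adjusted p 0.761 and 0.986, by edgeR's quasi-likelihood test. Yp2, a yolk protein gene and one of the most abundant of the list, had a log2 difference of 0.10 (SE 0.47).

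**Figure D3:**
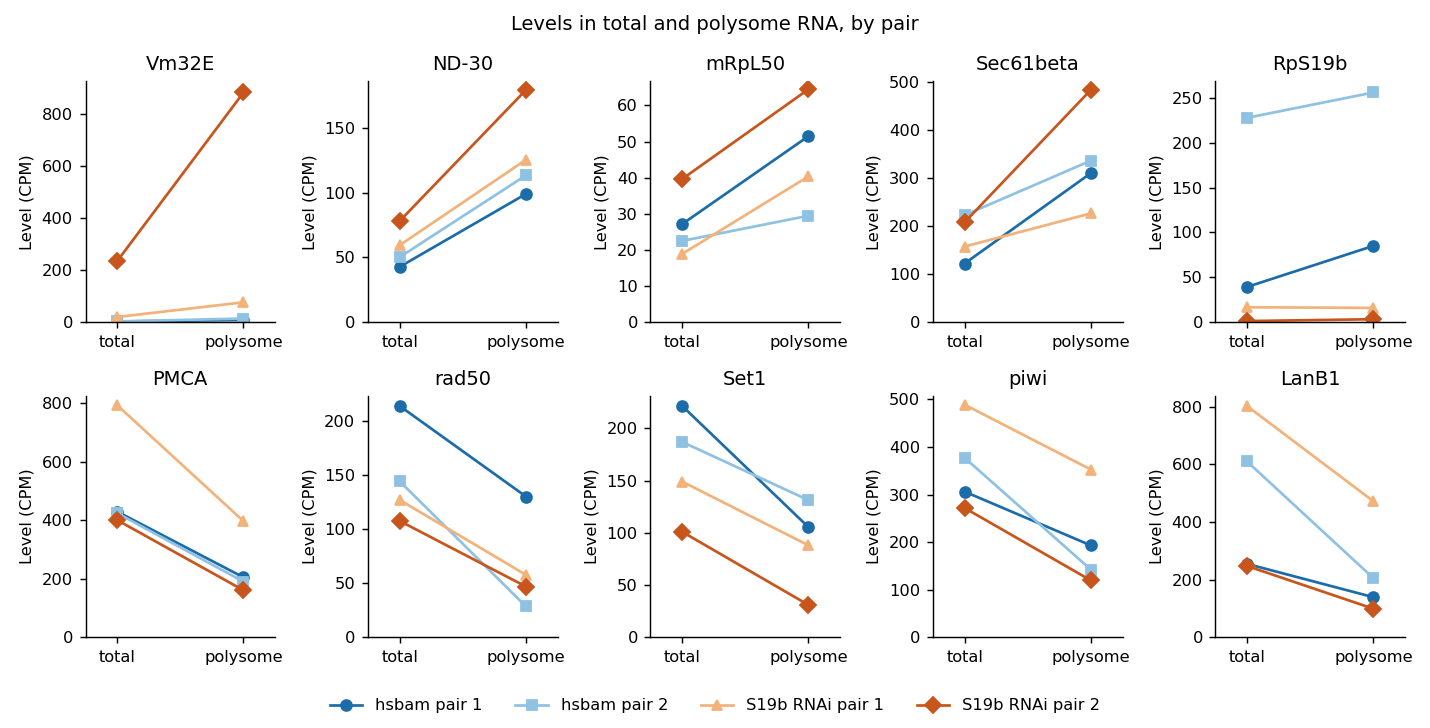
Level in CPM in total and polysome RNA of 10 genes, with a line for each pair of libraries. Vm32E, ND-30, mRpL50 and Sec61beta are higher in polysome RNA in every pair and RpS19b in 3 of 4, whereas PMCA, rad50, Set1, piwi and LanB1 are lower in every pair.

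Genes of basement membrane and extracellular matrix, secreted mainly by somatic and fat body cells, had a median of -0.47, which was -0.86 without hsbam polysome replicate 2 and -0.10 without S19b RNAi total replicate 1. Of 15 members tested, 0 were higher and 4 lower in all 4 pairs (26.7% against 10.3% of all genes). The 4-library fit called 0 higher and 8 lower (53.3% against 14.5% of all genes). LanB1, the beta chain of laminin (chromosome 2L, 7811438 to 7820771), had 247.4 to 803.1 CPM in total and 98.9 to 472 CPM in polysome RNA. It was lower in each pair, by -1.12 (SE 0.58) over 8 libraries. With the pairs as blocks this was -1.16 (unadjusted p = 0.00042 and adjusted p = 0.761, edgeR's quasi-likelihood test). The 4-library fit gave -1.19 (SE 0.16, adjusted p = 0.000274 by the same test). vkg and Col4a1, the collagen IV chains, were called lower there by -0.90 (SE 0.15) and -0.73 (SE 0.18), and dally, a heparan sulphate proteoglycan, by -1.24 (SE 0.15). Ppn, also of the matrix, had 0.44 (SE 0.18) and was not called. The list's total RNA level moves with the muscle and somatic markers described above, and their part in these ratios was not tested. The median coding length of the list is 4581 bases.

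Genes of the piRNA pathway, which silences transposons in the germline, were more often lower than higher. Of 27 tested, 10 were lower (37%, against 10.3% of all genes) and 1 higher in all 4 pairs. Some were lower in S19b RNAi pair 1 only after TMM scaling. There AGO3 had 123.5 CPM in total and 133.9 CPM in polysome RNA, and del had 168.3 and 169.8 CPM. The 4-library fit called 12 lower (44.4% against 14.5% of all genes) and 0 higher. With the library's total count as the scaling it called 6 lower. The 8-library median was -0.22, or -0.35 to -0.16 when 1 library was left out, and all 4 pair medians were below 0, from -0.46 to -0.05. In hsbam pair 2, however, the list had -0.06 and all genes had -0.09, so the list was not lower than all genes there. piwi, the nuclear Argonaute of the pathway (chromosome 2L, 10982205 to 10987420), had 306.1, 377.2, 488.8 and 271.7 CPM in total and 192.9, 142, 352.4 and 119.3 CPM in polysome RNA. It was lower in each pair, by -0.91 (SE 0.39) over 8 libraries. AGO3, a cytoplasmic partner in piRNA amplification, del, a cofactor of cluster transcription, and qin, a Tudor protein, were called lower in the 4-library fit by -1.34, -1.19 and -1.39.

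Of 33 regulators of mRNA stability and translation, the 4-library fit called 19 lower (57.6% against 14.5% of all genes) and 4 higher (12.1% against 13.8%). Over all 4 pairs 4 were lower (12.1%, near the share of all genes) and 1 higher. Not1, the scaffold of the deadenylase complex, had 497, 682.5, 836.9 and 496.7 CPM in total and 393.2, 485.5, 724.4 and 178.5 CPM in polysome RNA. Its 8-library difference was -0.51 (SE 0.46). pcm, the cytoplasmic 5' to 3' exonuclease, was the 1 member higher in all pairs, with 88.5, 69.5, 75.5 and 86.7 CPM in total and 164.7, 97.1, 110.2 and 119.6 CPM in polysome RNA. Every polysome library lay above every total library for pcm, and its difference was 0.57 (SE 0.30) over 8 libraries and 0.58 (SE 0.15; adjusted p = 0.0101, edgeR's quasi-likelihood test) in the 4-library fit. me31B, a helicase that represses stored mRNAs, was called lower there by -0.998 (SE 0.21) but was higher in S19b RNAi pair 1, at 1741 against 831.5 CPM.

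Oocyte patterning and maternal mRNAs did not share a direction across pairs. Of 39 tested, 2 were higher and 4 lower in all 4 pairs (5.13% and 10.3%, against 7.19% and 10.3% of all genes). The 4-library fit called 5 higher and 16 lower (12.8% and 41%, against 13.8% and 14.5%). osk, which assembles the germ plasm, had 748.1 and 450.2 CPM in total and polysome RNA of hsbam pair 1 and 825.3 and 446.7 CPM in S19b RNAi pair 2. In S19b RNAi pair 1 it had 347.8 and 930.4 CPM, the opposite direction, and in hsbam pair 2 14.4 and 12.2 CPM. The 4-library fit called it lower by -0.91 (SE 0.18; adjusted p = 0.00224, edgeR's quasi-likelihood test), and the 8-library difference was -0.37 (SE 1.02), or 1.28 without hsbam total replicate 1. osk overlaps a noncoding RNA gene on each strand, so its count is uncertain.

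bcd, the anterior determinant, followed osk, at 38.8 against 23.0 CPM in hsbam pair 1 and 56.3 against 30.3 CPM in S19b RNAi pair 2. It was higher in polysome RNA in S19b RNAi pair 1, at 27.4 against 11.2 CPM, and had 14.4 against 0.36 CPM in hsbam pair 2. Of the others described here, 4 were not called in the 4-library fit: nanos, the posterior repressor, was at -0.33 (SE 0.16), grk, the TGF-alpha-like signal, at 0.08 (SE 0.18), pgc, the transcription silencer of germ cells, at -0.33 (SE 0.14), and CycB, the mitotic cyclin, at -0.21 (SE 0.21). stau, an RNA transport protein, and tud, the founding Tudor protein, were lower in each pair, with 8-library differences of -0.54 (SE 0.35) and -0.76 (SE 0.42), and the 4-library fit called both lower. vls, a cofactor of arginine methylation, was higher in each pair, by 1.03 (SE 0.57) over 8 libraries, and was called higher in the 4-library fit.

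Among germline differentiation genes, 0 of 26 were higher and 4 lower in all 4 pairs (15.4% against 10.3% of all genes), with 12 called lower (46.2% against 14.5%) and 0 higher in the 4-library fit. bam, the differentiation switch targeted by RNAi in hsbam, had 383.1 and 318.4 CPM in total and polysome RNA of hsbam pair 1, 95.3 and 93.9 CPM in hsbam pair 2, 4.07 and 6.38 CPM in S19b RNAi pair 1 and 39.1 and 34.9 CPM in S19b RNAi pair 2. Its level differed between genotypes and between pairs more than between fractions, and every hsbam library lay above every S19b RNAi library. The difference between fractions was -0.19 (SE 0.71). Rbfox1, an RNA-binding protein of germline and soma, was lower in polysome RNA in the pairs with most genes detected, at 54.6 against 79.3 and 22.1 against 53.6 CPM, and higher in the other 2, at 283 against 234.4 and 202.3 against 173 CPM. The 4-library fit gave -0.99 (SE 0.17; adjusted p = 0.000964, edgeR's quasi-likelihood test), and the 8-library fit 0.09 (SE 0.78). Several genes overlap Rbfox1.

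Genes of the 4-library calls were also named, after the values were seen, where the mean log2 CPM reached 3, the direction was kept in all 4 pairs, and within each genotype both polysome libraries lay beyond both total libraries. The last condition leaves out larger differences given above, such as Vm32E, Cp15, SdhC, ATPsynO and eIF4G1. Among those left, the 10 protein-coding genes with the highest 4-library differences were ND-30 and ND-B14.5B, given above, and 8 others, Lamtor3, Sec61beta, Tim8, Obp99a, Dhc98D, CG1628, CG4041 and CG6310. Lamtor3, a subunit of the lysosomal anchor of mTORC1, had 19.0, 24.7, 28.8 and 31.3 CPM in total and 54.4, 65.5, 48.3 and 73.1 CPM in polysome RNA. Sec61beta, a subunit of the channel that passes proteins into the ER (chromosome 2R, 14618771 to 14619681), had 122.6, 223.3, 158 and 208.5 CPM in total and 311.1, 337, 227.1 and 484.7 CPM in polysome RNA. Tim8, a chaperone of the mitochondrial intermembrane space, had 58.6, 64.2, 77.0 and 83.5 CPM in total and 146.5, 89.2, 87.6 and 208.9 CPM in polysome RNA. For these 3 genes the groups did not overlap, and the 8-library differences were 1.23 (SE 0.48), 0.92 (SE 0.37) and 0.86 (SE 0.36). With 15240 coding bases Dhc98D, a dynein heavy chain gene, was the longest of these 10 genes.

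Under the same conditions, the 10 protein-coding genes with the lowest 4-library differences were Atf6, CG13096, CG9902, Mink, PMCA, rad50, Sap-r, Set1, SMC2 and sno, with coding lengths from 2043 to 4959 bases. PMCA, the calcium pump of the plasma membrane (chromosome 4, 328193 to 358917), had 430.2, 424.8, 794.3 and 401 CPM in total and 204.9, 190.2, 397.1 and 160.7 CPM in polysome RNA. Every polysome library lay below every total library. The difference was -1.14 (SE 0.39) over 8 libraries and -1.29 (SE 0.16; adjusted p = 0.000207, edgeR's quasi-likelihood test) in the 4-library fit.

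rad50, a DNA break repair ATPase (chromosome 2R, 22421013 to 22425482), had 213.6, 144.1, 126.8 and 107.4 CPM in total and 129.9, 28.4, 57.5 and 46.8 CPM in polysome RNA. Set1, the main methyltransferase of lysine 4 on histone H3, had 221.6, 187.1, 149.1 and 101 CPM in total and 105.4, 131.3, 88.0 and 30.9 CPM in polysome RNA. Both were lower in each pair, with overlapping groups. Sap-r, which encodes the lysosomal saposins, had 1298 to 1432 CPM in total and 474.7 to 1190 CPM in polysome RNA, without overlap. Atf6, an ER stress sensor, and SMC2, a condensin subunit, differed by -0.97 (SE 0.35) and -1.08 (SE 0.38) over 8 libraries.

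Among RNAs without a protein product, 3 hosts of small nucleolar RNAs had lower levels in polysome RNA in each pair. Of 14 regulatory and host RNAs tested, 4 were lower and 0 higher in all 4 pairs, the same counts as the calls of the 4-library fit. The share lower was 28.6% in both, against 10.3% and 14.5% of all genes. Their median was -1.26 (SD of the 4 pair medians 1.69). The pair median was -3.89 in hsbam pair 2, the pair with the shallowest polysome library, against -0.48 in the 4-library fit. In DESeq2 on these 4 libraries 1 was called lower. Uhg5, with 11 snoRNA genes in it, had 57.9, 163.1, 69.3 and 34.1 CPM in total and 25.9, 56.8, 14.2 and 32.2 CPM in polysome RNA. Uhg1 had 79.9, 97.3, 72.2 and 56.5 CPM in total and 51.6, 5.04, 45.0 and 43.3 CPM in polysome RNA, and every polysome library lay below every total one. Uhg2 did the same, with 24.0 to 32.1 CPM in total and 0.72 to 16.1 CPM in polysome RNA. The 8-library differences were -1.28 (SE 0.57), -1.24 (SE 0.59) and -1.93 (SE 0.89).

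lncRNA:Hsromega, a stress-inducible nuclear RNA, had 473.2, 920, 182.1 and 119.6 CPM in total and 627, 507.4, 102.7 and 182.5 CPM in polysome RNA, higher in the pairs with most genes and lower in the others. lncRNA:roX1, an RNA of the male dosage compensation complex, was at 0 to 3.80 CPM in polysome and 0.79 to 16.2 CPM in total RNA, and lncRNA:roX2, below the filter on low counts, had 0 to 88 counts. The antisense RNA asRNA:CR42254, opposite BEAF-32, was higher in each pair, at 0.93 (SE 0.80), and DESeq2 did not call it in the 4 libraries (adjusted p = 0.0655). Whether its reads can be told from those of BEAF-32 depends on a strand setting that is not given.

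Histone genes, of which 7 were tested in poly(A)-selected RNA, had a median of 0.41, or 0.08 without hsbam total replicate 2, with 1 higher in all 4 pairs. That was His3.3B, a replication-independent H3 gene, with 912.6, 2070, 1470 and 895.9 CPM in total and 2042, 3834, 2051 and 1101 CPM in polysome RNA. Genes of the nuclear pore, mRNA export and the spliceosome had 9 higher and 6 lower of 48 in all 4 pairs (18.8% and 12.5%), and the 4-library fit called 11 higher and 6 lower. For the secretory pathway 4 were higher and 2 lower of 29 in all 4 pairs (13.8% and 6.9%). The 4-library fit called 7 and 2 (24.1% and 6.9%). For proteasome subunits these were 4 and 1 of 36 (11.1% and 2.78%), with 5 and 4 of 35 called (14.3% and 11.4%). All genes had 7.19% and 10.3% in all 4 pairs and 13.8% and 14.5% called. The next 3 lists had shares lower in all 4 pairs near that of all genes but more than 14.5% called lower in the 4-library fit. Cell cycle and replication genes had 1 higher and 5 lower of 38 in all 4 pairs, with 2 and 14 called in the 4-library fit. Chromatin and transcription regulators had 2 higher and 4 lower of 37, with 0 and 12 called, and a median of -0.29. Ribosome biogenesis genes had 3 higher and 4 lower of 28, with 2 and 10 called. The synaptonemal complex and meiotic list had 0 and 1 of 25, with 1 and 5 called and a pair median of -2.998 in hsbam pair 2. Chaperones had 0 and 2 of 21, with 1 and 3 called. One of them, Hsp23, differed between genotypes, at 6400 to 26240 CPM in hsbam and 121.1 to 631.4 CPM in S19b RNAi libraries. The cause of this was not tested.

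Lists of other tissues were described for the same reason as the markers above. Muscle sheath genes, 23 tested, had a median of 0.01, which ran from -0.76 to 0.47 when 1 library was left out, and 0 members with the same direction in all 4 pairs. Act57B, a muscle actin, had 1581, 7100, 7736 and 2803 CPM in total and 1437, 8983, 6674 and 2970 CPM in polysome RNA, so that its level separated the sets of libraries and not the fractions. Escort, cap and terminal filament genes had 0 higher and 5 lower (21.7%) of 23 in all 4 pairs. Fat body and hemocyte genes had 2 and 4 of 15 (13.3% and 26.7%), and neuronal genes 0 and 1 (9.09%) of 11. Over all genes 7.19% were higher and 10.3% lower. Of the 8 stress response mRNAs with upstream open reading frames, 1 was higher and 1 lower in all 4 pairs. crc, the fly ATF4, was called higher in the 4-library fit at 0.84 (SE 0.20; adjusted p = 0.00779, edgeR's quasi-likelihood test) but had the opposite direction in the other 2 pairs, at 593 against 1315 and 659.1 against 1335 CPM. Thor, the fly 4E-BP, was higher in 3 of 4 pairs, with 0.46 (SE 0.41).

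**Figure D4:**
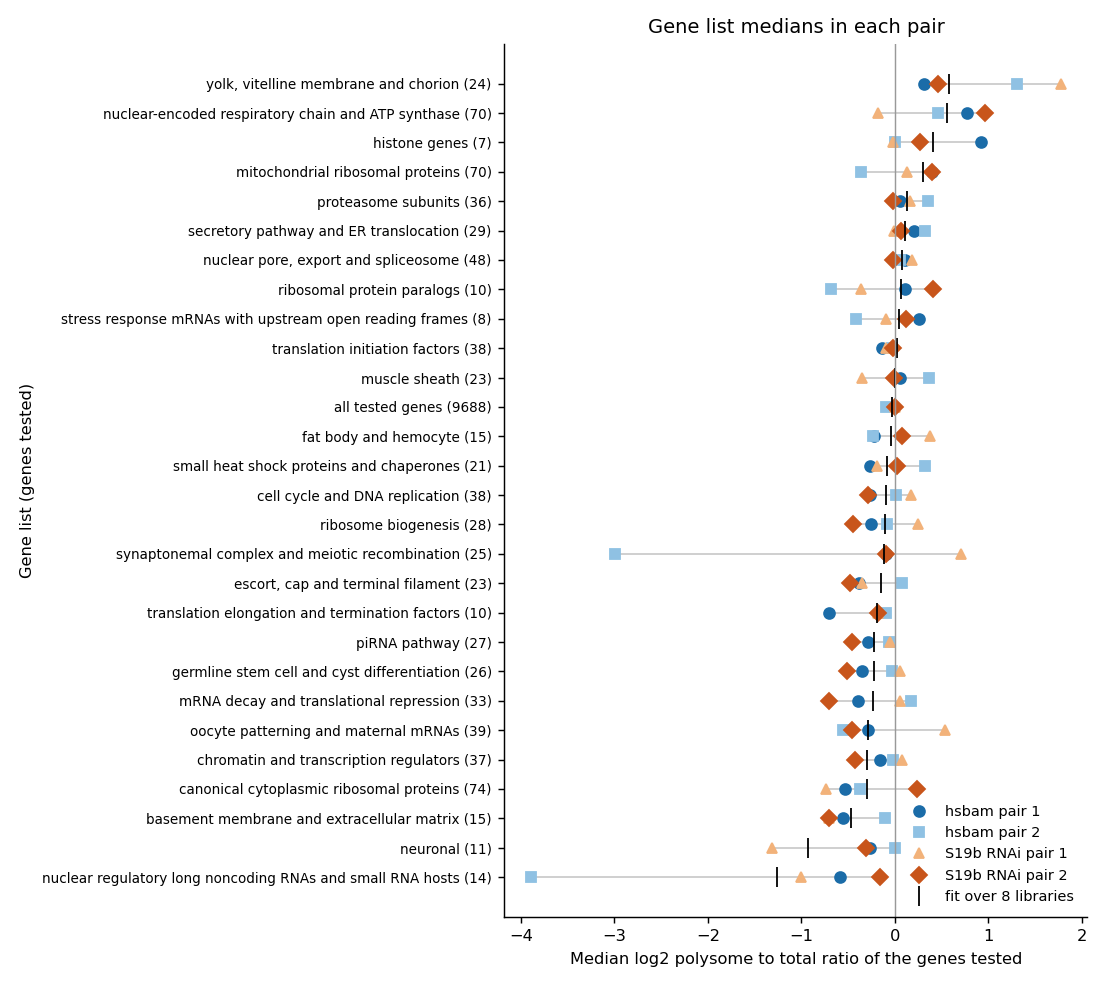
Median log2 polysome to total ratio of each gene list in each of the 4 pairs (symbols) and in the fit over 8 libraries (black tick), with the number of genes tested in brackets. Eggshell and yolk genes have a median above 0 in all 4 pairs. Matrix genes, piRNA genes, initiation factors, elongation and termination factors, and regulatory and host RNAs have medians below 0 in all 4. In hsbam pair 2 the median of all genes was -0.09, and piRNA genes and both factor lists were not below it. Most lists have pairs on both sides of 0.

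Coding length went along with the ratio in hsbam pair 1 and S19b RNAi pair 2, with Spearman correlations of -0.31 and -0.47 over 9124 protein-coding genes. Over the same genes it was -0.08 in hsbam pair 2 and -0.0025 in S19b RNAi pair 1. Over 8 libraries the median log2 difference was 0.38 for 259 genes of up to 300 coding bases, 0.25 in the next bin, up to 600 bases, 0.14 up to 1200, -0.04 up to 2400, -0.25 up to 4800 and -0.31 for 478 genes over 4800. Among the shortest genes 10.8% were higher and 2.32% lower in all 4 pairs, and among the longest 1.88% were higher and 22.2% lower. The 4-library fit called 46.8% of 278 genes of up to 300 bases higher and 0.36% lower, against 5.59% higher and 24.4% lower of 483 genes over 4800.

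Over the 4368 of these genes whose mean log2 CPM reached 5, the correlation was -0.27 in hsbam pair 1, -0.26 in hsbam pair 2 and -0.54 in S19b RNAi pair 2, but -0.02 in S19b RNAi pair 1. In that last pair the shortest genes had a median of -0.58, the lowest of its 6 bins. The genes share their libraries and are not independent. The shortest bin minus the longest came to 0.69 over 8 libraries, 1.05 in the 4 libraries with the most genes detected and 0.08 in the 4 with the fewest. Leaving out S19b RNAi polysome replicate 2 brought it to 0.19. Canonical ribosomal proteins, with a median coding length of 466.5 bases like the respiratory chain genes, had a median ratio of the opposite sign.

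**Figure D5:**
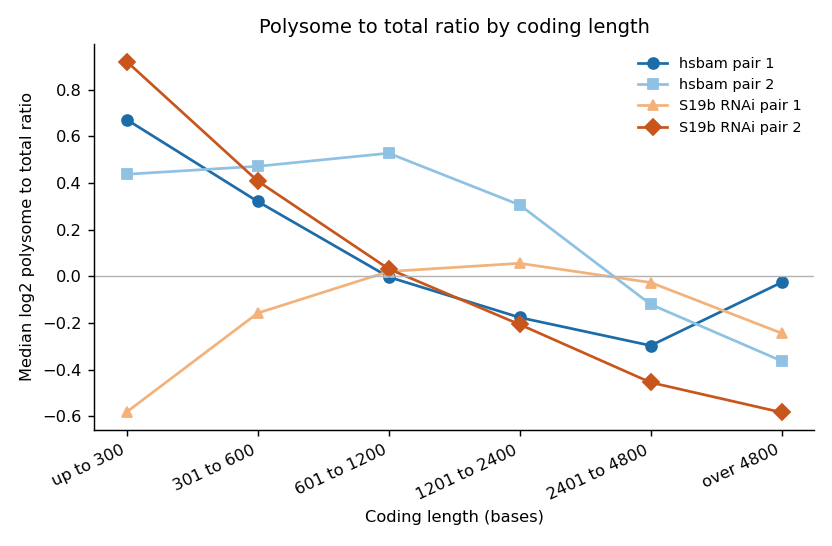
Median log2 polysome to total ratio of genes whose mean log2 CPM reached 5, in 6 bins of coding length and for each pair of libraries. The ratio is highest in the shortest bin in hsbam pair 1 and S19b RNAi pair 2, at 0.67 and 0.92, and lowest there in S19b RNAi pair 1, at -0.58.

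Other RNA classes gave shares that the design could not separate. IDs with no annotation in the reference took 6.19% ± 0.17 (SD, n = 4) of counts in total and 5.24% ± 0.42 (SD, n = 4) in polysome RNA, lower in each pair and without overlap. Their p of 0.0556 is the smallest that this 2-sided exact permutation test allows, and its adjusted value was 0.25. Noncoding RNAs took 0.33% ± 0.11 (SD, n = 4) and 0.25% ± 0.04 (SD, n = 4), with p = 0.333 in the same exact permutation test. Histones took 0.32% ± 0.11 (SD, n = 4) in total and 0.51% ± 0.25 (SD, n = 4) in polysome RNA, higher in each pair, with an exact permutation p of 0.111. By biotype, the 256 noncoding RNAs tested had a median ratio of -0.61 over 8 libraries, but the pair medians were -0.18 in hsbam pair 1, -3.13 in hsbam pair 2 and 0 in both S19b RNAi pairs, and the 4-library median was 0.05. In all 4 pairs 29 of them were lower (11.3%, near the share of all genes) and 5 higher. The 44 snoRNAs had a median of -1.27, with pair medians of -0.78, -3.37, 0 and 0.18 in the same order, and the 4-library median was -0.37. For both classes the lowest pair median was that of hsbam pair 2, whose polysome library is the shallowest. No 8-library median was taken without that pair, and the part of depth was not tested.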

How the data were processed

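The authors deposited raw counts per gene in 1 table per library. Per the submitters' processing notes, the tools were HISAT2 (version 2.1.0), featureCounts (1.6.0.4) and edgeR (3.16.5), with the build dm6. Neither the release of the gene annotation nor the strand option of the counting is given in the sources used here, and overlapping genes have uncertain counts. Per the labels' protocols, libraries were poly(A)-selected, directional and fragmented for 13 minutes. Of 17023 gene IDs, 16647 had a symbol in the Ensembl annotation of the same build and 376 had none. Depth was 2780781 to 15463633 counts per library.

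The tests here used edgeR (4.0.16, R 4.3.3): filterByExpr by group (minimum count 10, minimum total 15), TMM, a quasi-likelihood F test, and p adjusted by Benjamini and Hochberg across the whole table, threshold 0.05. Fold changes are log2; dividing one by the square root of F gave its SE. The additive fit used genotype and fraction; fits per genotype and of their difference used group means. CPM are per library total without TMM, and ratios per pair are log2 CPM with TMM and a prior count of 2. An SD is over libraries. Alternatives were DESeq2 1.42.0, its size factors, library size alone, no filter, limma-voom 3.58.1, a 2-fold minimum, each library left out and a pair block. Fits on 4 libraries, without a pair, or with a term for the set of libraries were added after seeing the data.

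Same-numbered total and polysome libraries deviated from their group means together (r = 0.299 in hsbam and 0.486 in S19b RNAi, each over genes and shared by both pairs of a genotype), so the numbers were taken to pair them. Nothing says that replicates came from separate dissections, so p-values measure only the spread between these libraries. The members, the 28 gene lists and the tests were chosen with earlier results of these data known. By rule, genes named were the 14 tested genes of a set always given, the largest differences passing the test with a mean log2 CPM reaching 3, 1 direction in all 4 pairs and, within each genotype, both polysome libraries beyond both total libraries, up to 4 passing members of each list described with the smallest p, and, with none passing, its 2 members with the highest levels. Because 0 genes passed, the 4-library calls stood in for passing genes after values were seen. List members with the smallest p were then taken only from calls whose direction was kept in all 4 pairs. Members with a smaller p but mixed directions were passed over. Simulated data without pairs tested the additive fit on 8 and on 4 libraries. In the 4-library fit 100% of 100 genes changed 8-fold and 98% of 100 changed 2-fold were recovered. There were 9 wrong calls beside 198 right ones, and over 8 libraries 7 wrong beside 85 right. The simulated spread of the 4-library fit came from these same 4 libraries, chosen after their ratios were known to correlate. Promoter letters were not analysed here. A further 15 libraries and 8 tables of 2 rows were not used. Figures used matplotlib 3.10.9 in Python 3.11.15.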

Additional observations from a re-analysis of the deposited data

How the results depend on the processing

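The count of 0 genes in the 8-library fit was the same under other scalings, filters, tools and fold minimum, without any 1 library, with the pair block, in fits without either pair of the fewer-gene set, and with a term for that set. It changed only in the fits of 4 libraries, to 2859 and 6 calls, and list members called changed from 0 to 293 and 4. Within hsbam, the pair block (replicate block) gave 8 calls, within S19b RNAi 1, and leaving out single libraries gave 0 to 460 and 0 to 0. The block changed no other call. The difference between genotypes had 1 call without a filter on low counts, CG15599, and 0 otherwise. In the 4-library fit the count was 2859, 1839 by DESeq2 and 587 with a 2-fold minimum, and 2502 to 3452 otherwise. It allows no library to be left out, since 0 degrees of freedom would remain. Most genes named in the text, 82, were followed through the alternatives, but some, such as Hsp23, ci, eIF3k and Cp7Fc, were not. Of these 82 genes, 9 had opposite signs in the 8-library and 4-library fits: Rbfox1 at -0.99 and crc at 0.84, called in the latter, and grk, Ppn, lncRNA:Hsromega, ATPsynbeta, Act57B, Yp2 and RpS19a, called in neither. Apart from the fits on 4 libraries and the others added later, 63 of the 82 kept their 8-library sign under every alternative and 19 did not. List medians moved with single libraries, and the ranges stand beside the lists described. Removing mitochondrially encoded genes changed nothing, as all were at 0. The cause of these changes was not tested. Depth limits low genes in hsbam polysome replicate 2.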
